A study of Homo sapiens with 3 samples.

Results

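The genes described here build, position and divide the mitotic spindle. They were taken from a list of 53 genes with roles in mitotic entry, chromosome attachment, spindle assembly and cytokinesis, and each was represented by its brightest probe set annotated to that gene alone. Such a probe set was found for 52 of the 53, among 18239 genes in all. The missing one is PTTG1, which encodes securin, the inhibitor of the protease that opens cohesin rings. Its probe sets are shared with PTTG2 and PTTG3P. All 52 lay above the level below which genes were not tested (log2 3.93), so no member was lost to that filter.

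Expression was measured on 3 Affymetrix arrays hybridised with RNA from GFP-SAS cells, labelled as SAS, a cell line from a human tongue carcinoma; the labels do not describe how the GFP was introduced. The libraries came from cells given siAkt1-22, siAkt1-58 or siNT, each at 10 nM for 24 h. The siAkt1 reagents are small interfering RNAs (siRNAs) against AKT1, a kinase of the PI3K pathway, and siNT is a non-targeting siRNA. There was 1 library per siRNA from a single line, and the labels do not say whether the RNA came from separate cultures, so the spread between libraries may be technical.

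When cells prepare to divide, cyclin B with CDK1 drives them into mitosis, kinetochores tie each chromosome to spindle microtubules, and the spindle checkpoint holds the anaphase-promoting complex (APC/C) inactive until every chromosome is attached. The APC/C then destroys securin and cyclin B, and a contractile ring divides the cell. Most of these genes are transcribed in G2 and M phase. In human cells that timing depends on the MuvB complex with B-MYB (encoded by MYBL2) and FOXM1, which act through an element called the CHR, and on NF-Y, which binds CCAAT boxes nearby.

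Promoters are shown for 5 of the genes named below. KIF15 and ECT2 are the members at least 2-fold below siNT with both siRNAs. CENPA and MKI67 differed widely between the siRNAs, and CDC20 is a checkpoint target. Each promoter shown is the RefSeq window of 250 bases before the annotated start (GRCh38.p14), written 5′ to 3′ on the gene's strand. Capitals mark TTTGAA (the CHR core) and CCAAT, each searched on both strands, so that they also appear as TTCAAA and ATTGG.
KIF15 (chr3:44761544-44761793, plus strand): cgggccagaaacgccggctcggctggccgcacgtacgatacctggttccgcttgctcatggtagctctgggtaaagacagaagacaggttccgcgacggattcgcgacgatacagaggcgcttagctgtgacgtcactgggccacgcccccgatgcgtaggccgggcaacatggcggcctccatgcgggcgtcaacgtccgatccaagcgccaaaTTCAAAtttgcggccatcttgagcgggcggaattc
ECT2 (chr3:172750476-172750725, plus strand): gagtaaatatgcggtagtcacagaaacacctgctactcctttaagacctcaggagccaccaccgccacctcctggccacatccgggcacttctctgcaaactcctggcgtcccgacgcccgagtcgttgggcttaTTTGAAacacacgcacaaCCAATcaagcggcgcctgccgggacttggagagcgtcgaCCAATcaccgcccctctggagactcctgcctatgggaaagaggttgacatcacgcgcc
CENPA (chr2:26785806-26786055, plus strand): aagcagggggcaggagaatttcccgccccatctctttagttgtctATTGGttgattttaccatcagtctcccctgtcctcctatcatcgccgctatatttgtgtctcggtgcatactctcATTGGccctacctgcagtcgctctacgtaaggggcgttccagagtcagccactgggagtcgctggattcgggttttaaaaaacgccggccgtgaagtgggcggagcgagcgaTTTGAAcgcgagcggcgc
MKI67 (chr10:128126424-128126673, minus strand): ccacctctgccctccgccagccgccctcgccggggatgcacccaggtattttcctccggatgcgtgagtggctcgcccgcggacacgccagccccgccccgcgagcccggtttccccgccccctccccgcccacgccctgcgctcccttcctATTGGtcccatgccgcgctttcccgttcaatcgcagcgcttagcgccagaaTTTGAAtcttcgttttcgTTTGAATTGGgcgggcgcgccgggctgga
CDC20 (chr1:43358731-43358980, plus strand): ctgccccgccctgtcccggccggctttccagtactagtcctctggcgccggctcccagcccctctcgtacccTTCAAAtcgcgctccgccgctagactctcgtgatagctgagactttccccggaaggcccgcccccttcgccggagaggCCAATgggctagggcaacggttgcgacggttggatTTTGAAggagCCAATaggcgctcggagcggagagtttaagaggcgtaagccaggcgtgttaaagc

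In the MKI67 window the second TTTGAA, from -29 to -24 relative to the start, shares 1 base with the ATTGG that follows it. KIF15 has 1 CHR core and no CCAAT, CENPA has 1 CHR core with 2 CCAAT matches, and MKI67 and CDC20 have 2 of each. The ECT2 window shown has 1 CHR core with 2 CCAAT matches. ECT2 has 2 annotated starts, and its other window, not shown, holds 2 CHR cores. All 5 windows shown hold a CHR core, but those of CCNB1 and NDC80, also not shown, hold none. The CCNB1 window has 2 CCAAT matches and the NDC80 window has none. RefSeq windows were matched for 46 of the 53 genes (57 windows, as some genes have several starts). TTTGAA was found in 47.4% of these 57 windows, against 9.53% of 15117 windows of genes tested and 13.3% of all 35116 windows. CCAAT was found in 73.7% of the members' windows, against 32.7% of windows of genes tested and 32.0% of all windows. Both motifs stood together in 38.6% of the members' windows, against 3.71% of windows of genes tested and 4.69% of all. A match is a description of letters, not a bound site.

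The labels were checked on AKT1. Its log2 level was 3.67 with siAkt1-22 and 3.47 with siAkt1-58, against 6.75 with siNT, so that both siAkt1 values lay under the filter level. AKT2, checked beside it, differed from siNT by -0.97 with siAkt1-22 and -0.02 with siAkt1-58 in its brightest probe set. Of 8 epithelial markers measured, 7 lay above the filter level, with KRT14 dim in every library (at most 3.67), while 7 of 9 markers of leukocytes, endothelium and fibroblasts lay below it, and the other two, PECAM1 and VWF, read the same in every library. The siAkt1-22 library stood apart in several control values. The 24 poly-A control probe sets had a median of -0.56 from siNT with siAkt1-22, against -0.01 with siAkt1-58, and ACTB read -3.09 from siNT with siAkt1-22 against 0.21 with siAkt1-58. GAPDH differed from siNT by -0.05 with siAkt1-22 and 0.02 with siAkt1-58. The part of these shifts in the results below was not tested.

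Most of the mitotic genes lay below siNT with either siRNA, and usually by less than 2-fold. With siAkt1-58, 51 of 52 were below siNT, with a median difference of -0.84 on the log2 scale. With siAkt1-22, 42 of 52 were below siNT, with a median of -0.38. Over all 12779 genes tested, 37.0% were below siNT with siAkt1-58 and 35.7% with siAkt1-22, and both medians were 0.00. Of those genes, 2826 equalled siNT with at least 1 siRNA, against 0 of 52 members, which lowers the shares over all genes. The same 42 genes lay below siNT with both siRNAs, a share of 80.8% against 21.4% of genes tested. Among the 8897 genes tested whose mean level lay between those of the dimmest and brightest members (5.04 to 10.24), that share was 24.8%. Their median siNT level was 7.18, against 8.60 for the members, so brightness was not matched. The siRNAs are compared with the same siNT library, so these counts are not independent of each other. In RNA from whole cultures, fewer cells in G2 and M phase and less RNA per cell cannot be told apart.

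A difference of at least 2-fold below siNT was reached by 18 of 52 genes with siAkt1-58, against 3.58% of genes tested, and by 9 of 52 with siAkt1-22, against 5.97% of genes tested. No member was at least 2-fold above siNT with siAkt1-58 or with siAkt1-22, where 1.54% and 4.40% of genes tested were. KIF15 and ECT2 were at least 2-fold below siNT with both siRNAs, 2 of 52 where 1.17% of genes tested were, and 0 of 52 were at least 2-fold above siNT with both, where 0.736% were. PRC1 alone among the members was above siNT with both, where 30.9% of genes tested were.

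Neither siRNA has a repeat, so the only test across genes pools them. Limma compared the 2 siAkt1 libraries with the siNT library over all 12779 genes tested, with 1 residual degree of freedom, and called 0 genes at an adjusted p of 0.05 (0% of genes tested), members included. Unadjusted p was under 0.05 for 3 of 52 members (CCNB2, KIF15 and TPX2, all below siNT), against 7.47% of genes tested in either direction and 2.93% below siNT. No difference below therefore passed a test, and all are given as measured values. An SD over 2 differences is the spread between the siRNAs.

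**Figure D1:**
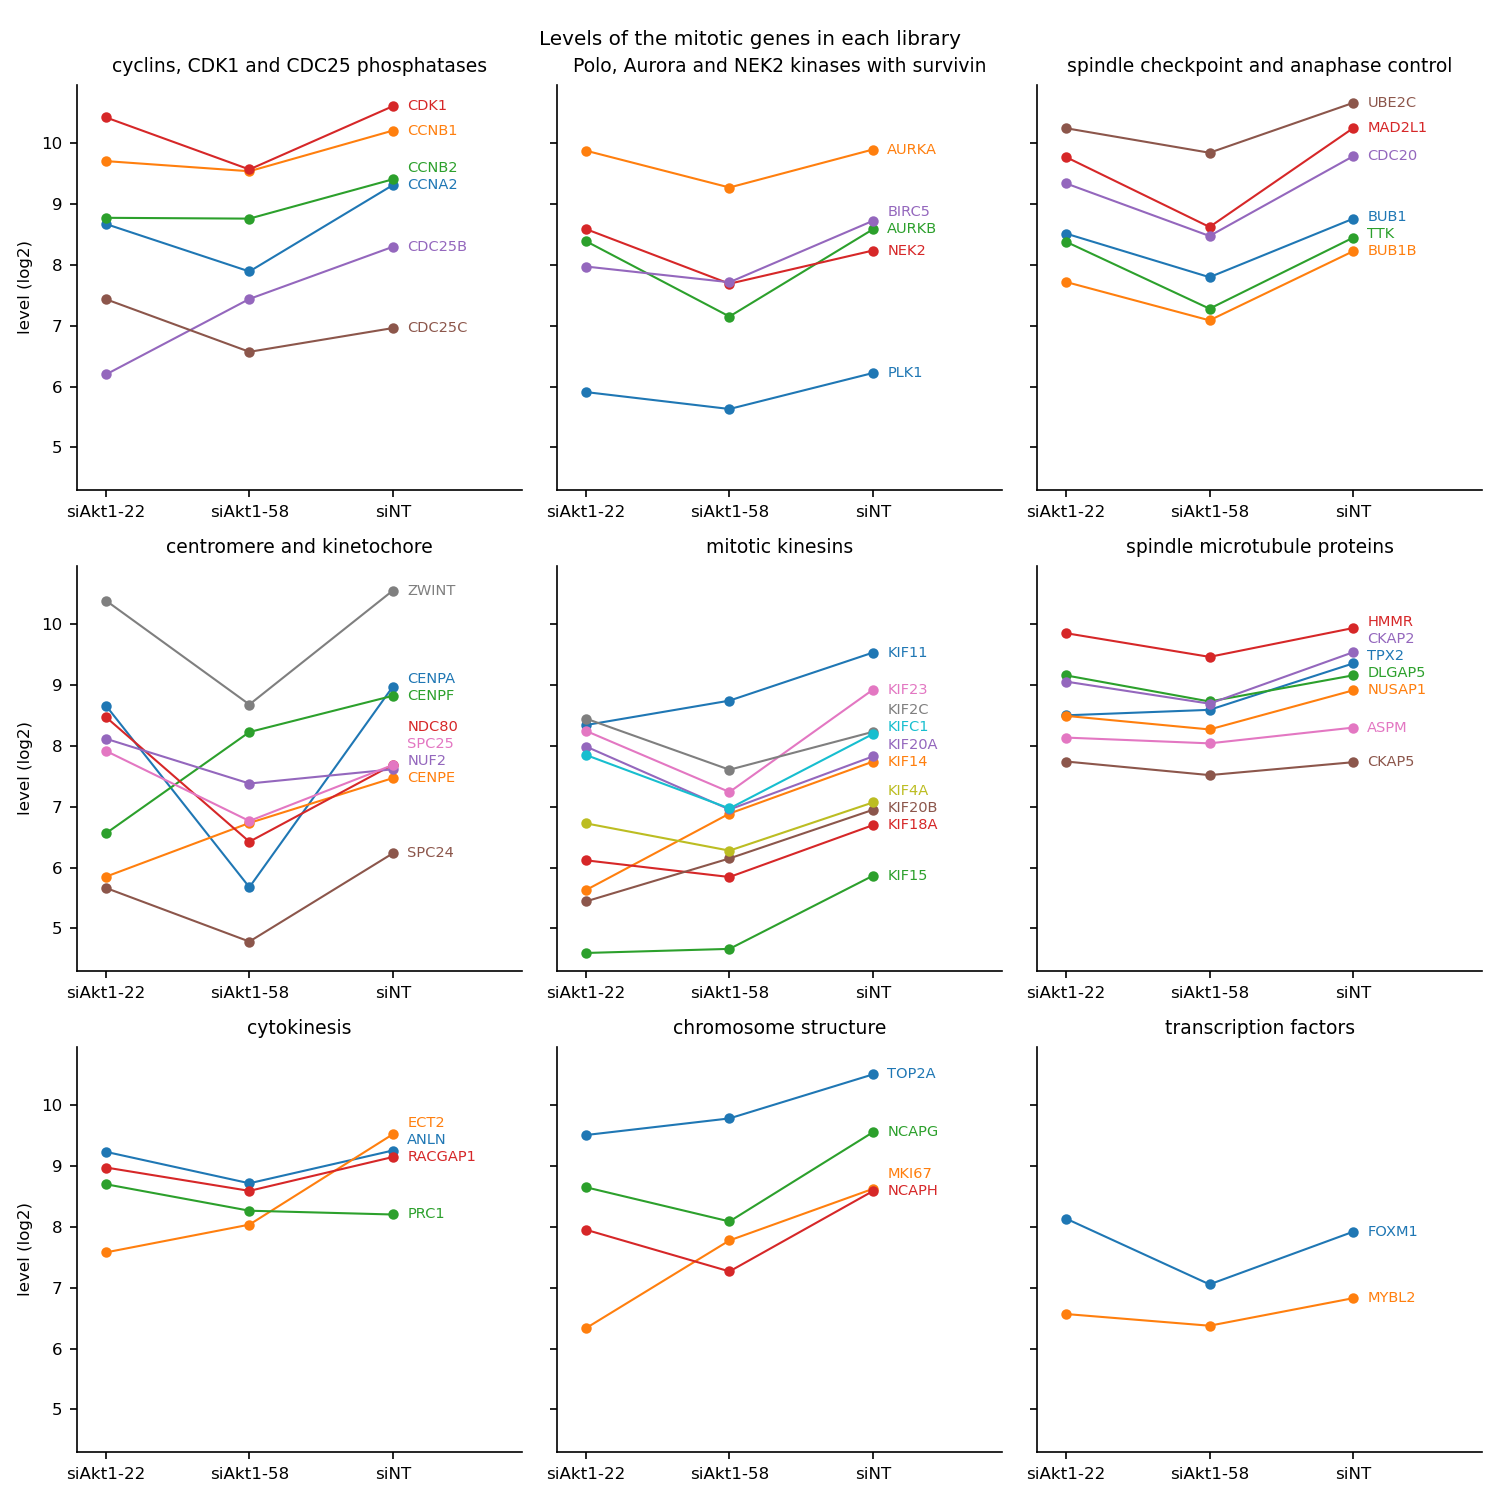
Log2 level (y axis) of the 52 measured mitotic genes in the siAkt1-22, siAkt1-58 and siNT libraries (x axis), in 9 panels by role. Each point is 1 library and lines join the values of 1 gene; the siNT point is the highest of the 3 in 42 genes, and CENPA with siAkt1-58, at 5.68, lies furthest below its siNT value.

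Except for CDC25C, genes of the CDK1 engine lay below siNT with both siRNAs, where 21.4% of genes tested did. CCNB1, cyclin B1, read 9.70 with siAkt1-22 and 9.53 with siAkt1-58, against 10.20 with siNT. CDK1, its kinase, read 10.41 with siAkt1-22 and 9.56 with siAkt1-58, against 10.60 with siNT. The siAkt1-58 library was the lowest for both genes, and for CDK1 the siAkt1-22 library was within 0.18 of siNT. CCNB2, cyclin B2, was nearly equal in the siAkt1 libraries, with a mean difference of -0.64 ± 0.01 (SD, n = 2; limma adjusted p = 0.607). Values without a siNT level beside them, here and below, are log2 differences from siNT. CCNA2, cyclin A2, which acts from S phase into mitosis, was -0.64 with siAkt1-22 and -1.42 with siAkt1-58. The phosphatases that switch CDK1 on differed from each other. CDC25B, which starts CDK1 activation, read 6.20 with siAkt1-22 and 7.44 with siAkt1-58, against 8.29 with siNT, and was 4.27-fold below siNT with siAkt1-22. CDC25C read 7.43 with siAkt1-22 and 6.57 with siAkt1-58, against 6.96 with siNT. The siAkt1 libraries thus lay on either side of siNT for CDC25C, and both lay below it for CDC25B.

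The Polo and Aurora kinases showed smaller differences with siAkt1-22 than with siAkt1-58. PLK1, which acts from centrosome maturation to cytokinesis, read 5.91 with siAkt1-22 and 5.63 with siAkt1-58, against 6.22 with siNT. AURKB, the kinase of the chromosomal passenger complex that corrects faulty attachments, read 8.38 with siAkt1-22 and 7.15 with siAkt1-58, against 8.58 with siNT. Its partner BIRC5 (survivin) was -0.75 with siAkt1-22 and -1.01 with siAkt1-58, a narrower gap than for AURKB. AURKA, which matures centrosomes, was -0.02 with siAkt1-22 and -0.62 with siAkt1-58. NEK2, which separates centrosomes, read 8.58 with siAkt1-22 and 7.69 with siAkt1-58, against 8.23 with siNT, so that siAkt1-22 was the highest library.

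All 6 measured genes of the spindle checkpoint and anaphase control lay below siNT with both siRNAs, where 21.4% of genes tested did. In each of the 6, siAkt1-58 was the lowest library, as it was in 24.2% of genes tested. The median of the 6 was -0.43 with siAkt1-22 and -1.15 with siAkt1-58. With siAkt1-58, 4 of the 6 were at least 2-fold below siNT, against 3.58% of genes tested. BUB1, a checkpoint kinase at the kinetochore, read 8.51 with siAkt1-22 and 7.79 with siAkt1-58, against 8.75 with siNT. CDC20, the APC/C activator that the checkpoint restrains, read 9.33 with siAkt1-22 and 8.47 with siAkt1-58, against 9.78 with siNT. The siAkt1-22 library was nearer to siNT than to siAkt1-58 in both genes. MAD2L1, which encodes the MAD2 protein that binds CDC20, was -0.47 with siAkt1-22 and -1.62 with siAkt1-58. TTK (the MPS1 kinase that starts checkpoint signalling) was -0.07 with siAkt1-22 and -1.16 with siAkt1-58. BUB1B, of the same checkpoint, was -0.50 with siAkt1-22 and -1.13 with siAkt1-58. UBE2C, the ubiquitin-conjugating enzyme of the APC/C, was -0.41 with siAkt1-22 and -0.82 with siAkt1-58.

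Centromere and kinetochore genes had the widest range of differences between the siRNAs among the 9 role groups. CENPA, the histone H3 variant that marks centromeres, read 8.65 with siAkt1-22 and 5.68 with siAkt1-58, against 8.97 with siNT. It was 1.24-fold below siNT with siAkt1-22 and 9.78-fold below with siAkt1-58, where it was among the lowest of the 12779 genes tested (number 7). ZWINT, a kinetochore linker protein, read 10.38 with siAkt1-22 and 8.67 with siAkt1-58, against 10.54 with siNT. Both genes were thus near siNT with siAkt1-22 and far below it with siAkt1-58. CENPE and CENPF, large kinetochore proteins of which the first is a kinesin motor, had the opposite order. CENPF read 6.56 with siAkt1-22 and 8.22 with siAkt1-58, against 8.82 with siNT. CENPE read 5.85 with siAkt1-22 and 6.73 with siAkt1-58, against 7.47 with siNT.

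The NDC80 complex, which holds the microtubule end, has 4 subunits. NDC80 read 8.47 with siAkt1-22 and 6.42 with siAkt1-58, against 7.69 with siNT, and differed 4.12-fold between the siRNAs. NUF2, its partner, read 8.11 with siAkt1-22 and 7.38 with siAkt1-58, against 7.61 with siNT. SPC25 read 7.91 with siAkt1-22 and 6.76 with siAkt1-58, against 7.68 with siNT. In these 3 subunits siAkt1-22 was the highest library and siAkt1-58 the lowest. SPC24 was -0.57 with siAkt1-22 and -1.45 with siAkt1-58 in its brightest probe set. Its other probe sets were dim, and those above the filter level lay within 0.08 of siNT with either siRNA.

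Mitotic kinesins divided into those lowest with siAkt1-22 and those lowest with siAkt1-58. KIF11, the motor that pushes the spindle poles apart, read 8.34 with siAkt1-22 and 8.74 with siAkt1-58, against 9.53 with siNT. KIF15, which can back up KIF11, read 4.60 with siAkt1-22 and 4.67 with siAkt1-58, against 5.86 with siNT, a mean difference of -1.23 ± 0.05 (SD, n = 2; limma adjusted p = 0.607). KIF14, a cytokinesis motor, read 5.63 with siAkt1-22 and 6.88 with siAkt1-58, against 7.74 with siNT. Those 3 kinesins and KIF20B (-1.50 with siAkt1-22 and -0.80 with siAkt1-58) were lowest with siAkt1-22. The other 6 were lowest with siAkt1-58. Among them, KIF23, the motor of centralspindlin, was -0.68 with siAkt1-22 and -1.68 with siAkt1-58, and KIFC1, a motor that moves to microtubule minus ends, -0.34 with siAkt1-22 and -1.22 with siAkt1-58. KIF18A, which dampens chromosome oscillations, was -0.58 with siAkt1-22 and -0.85 with siAkt1-58, and KIF4A, a chromosome-bound motor, -0.34 with siAkt1-22 and -0.79 with siAkt1-58. KIF20A, which carries passenger proteins to the midzone, was 0.16 with siAkt1-22 and -0.87 with siAkt1-58, and KIF2C, a microtubule depolymerase, 0.22 with siAkt1-22 and -0.62 with siAkt1-58, both above siNT with siAkt1-22.

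Spindle microtubule proteins had the smallest median with siAkt1-58 among the 9 role groups (-0.47). In their brightest probe sets, none was at least 2-fold from siNT with siAkt1-22 or siAkt1-58. TPX2, which activates AURKA and nucleates microtubules, read 8.50 with siAkt1-22 and 8.59 with siAkt1-58, against 9.35 with siNT, a mean difference of -0.81 ± 0.06 (SD, n = 2; limma adjusted p = 0.607). CKAP5, a microtubule polymerase, read 7.74 with siAkt1-22 and 7.52 with siAkt1-58, against 7.73 with siNT. So TPX2 was similarly low in both siAkt1 libraries, and CKAP5 was within 0.21 of siNT in both. CKAP2, a spindle-stabilising protein, was -0.48 with siAkt1-22 and -0.84 with siAkt1-58. ASPM, which organises spindle poles, was -0.16 with siAkt1-22 and -0.26 with siAkt1-58, and the hyaluronan receptor HMMR, also a spindle protein, -0.08 with siAkt1-22 and -0.47 with siAkt1-58. DLGAP5, which stabilises kinetochore fibres, was 0.00 with siAkt1-22 and -0.43 with siAkt1-58. NUSAP1, a microtubule bundler, was -0.42 with siAkt1-22 and -0.64 with siAkt1-58.

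Among cytokinesis genes, ECT2 stood out. This exchange factor switches on RHOA at the cleavage furrow, and it read 7.58 with siAkt1-22 and 8.03 with siAkt1-58, against 9.51 with siNT. Its mean difference was -1.71 ± 0.32 (SD, n = 2; limma adjusted p = 0.674), 3.83-fold below siNT with siAkt1-22 and 2.79-fold with siAkt1-58. ANLN, the anillin scaffold of the furrow, read 9.23 with siAkt1-22 and 8.71 with siAkt1-58, against 9.25 with siNT. PRC1, which bundles midzone microtubules, read 8.69 with siAkt1-22 and 8.26 with siAkt1-58, against 8.20 with siNT. PRC1 thus had its lowest value with siNT, the reverse of ECT2. RACGAP1, the partner of KIF23 that recruits ECT2, was -0.17 with siAkt1-22 and -0.56 with siAkt1-58.

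Chromosome structure genes all lay below siNT with both siRNAs, where 21.4% of genes tested did. Their medians were -0.95 with siAkt1-22 and -1.08 with siAkt1-58. MKI67 encodes Ki-67, the coat of mitotic chromosomes that is widely used as a proliferation marker, and read 6.33 with siAkt1-22 and 7.77 with siAkt1-58, against 8.62 with siNT. TOP2A, the topoisomerase that untangles sister chromatids, read 9.50 with siAkt1-22 and 9.77 with siAkt1-58, against 10.50 with siNT. NCAPG, a condensin subunit, read 8.64 with siAkt1-22 and 8.08 with siAkt1-58, against 9.55 with siNT. MKI67 and TOP2A were lowest with siAkt1-22, while NCAPG and its fellow subunit NCAPH (-0.63 with siAkt1-22 and -1.32 with siAkt1-58) were lowest with siAkt1-58. Of the transcription factors, FOXM1 read 8.13 with siAkt1-22 and 7.05 with siAkt1-58, against 7.91 with siNT. MYBL2 was -0.26 with siAkt1-22 and -0.45 with siAkt1-58.

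**Figure D2:**
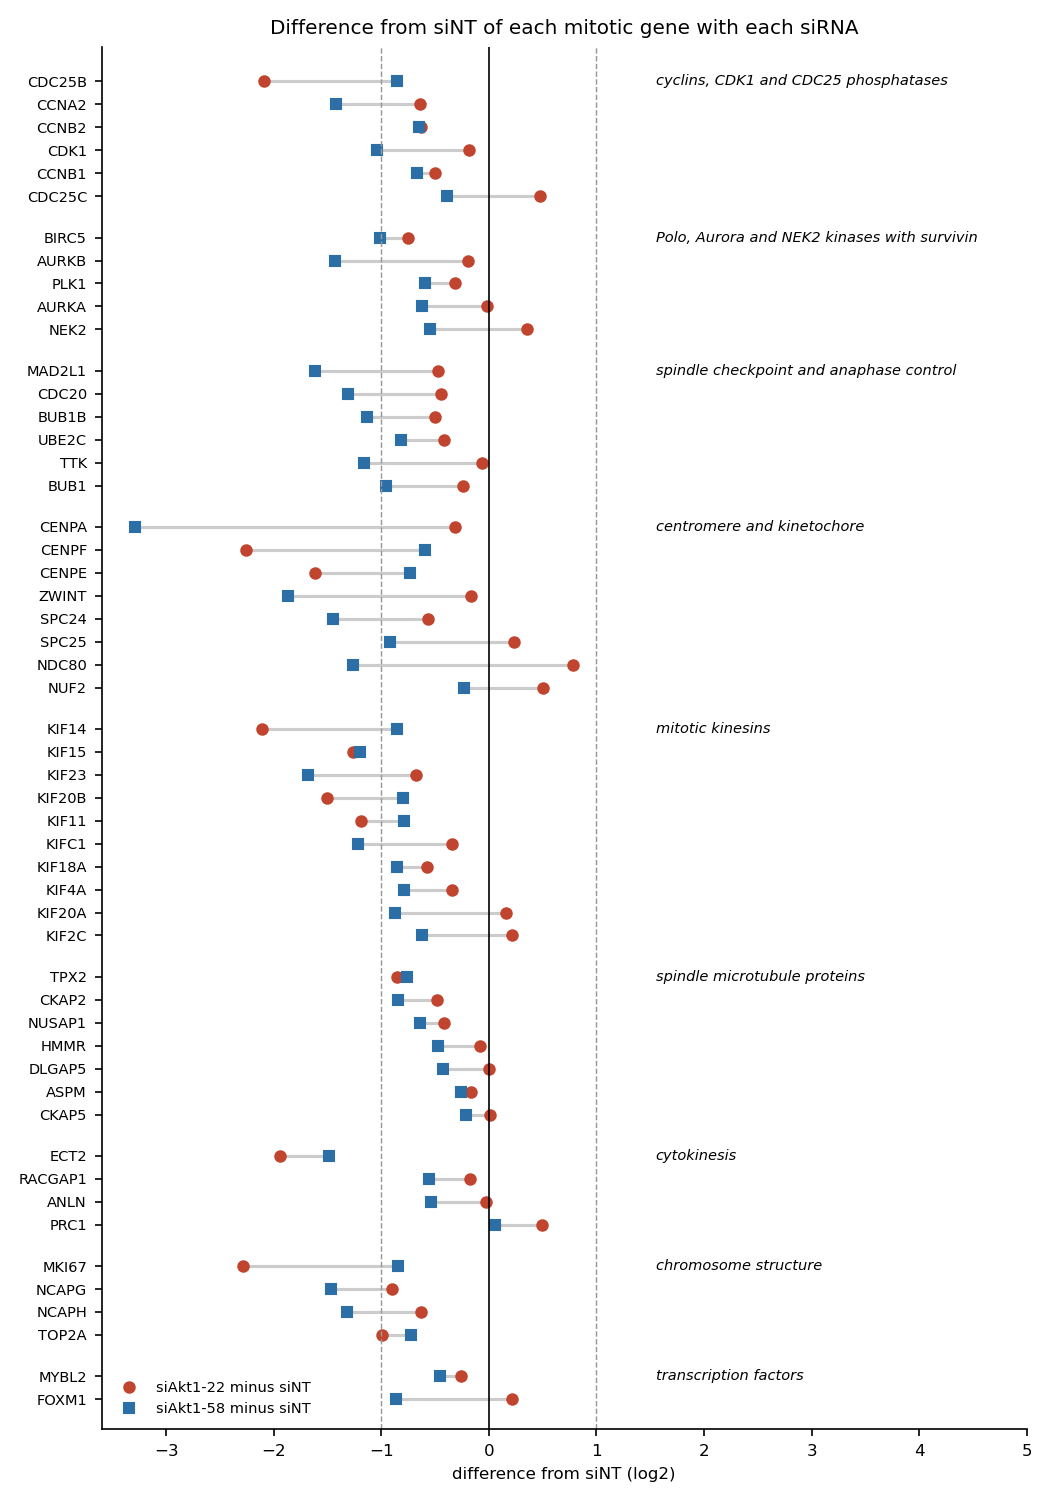
Log2 difference from siNT (x axis) with siAkt1-22 (circles) and siAkt1-58 (squares) for the 52 measured genes (y axis), grouped by role, 1 library each; dashed lines mark 2-fold. Squares lie left of 0 in 51 genes and circles in 42, and the grey bar between them is longest for CENPA.

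The siAkt1 libraries differed from each other across the list. In 41 of 52 genes the level was higher with siAkt1-22 than with siAkt1-58, against 46.6% of genes tested. The median of siAkt1-22 minus siAkt1-58 was 0.44 (0.00 over all genes tested). Over all genes tested, 5960 were higher with siAkt1-22, 4758 were lower and the rest were equal. The difference was at least 2-fold in 10 members with siAkt1-22 the higher, against 5.00% of genes tested. It was at least 2-fold in 4 members with siAkt1-22 the lower, against 5.28% of genes tested. The 4 were CENPF, MKI67, KIF14 and CDC25B, and CENPE followed. At the other end stood CENPA, NDC80, ZWINT, AURKB and SPC25. CENPA was 7.88-fold higher with siAkt1-22 than with siAkt1-58, number 11 among the 12779 genes tested, and CENPF was 3.16-fold lower. With 1 library of each siRNA, none of these differences has a replicate check, and the poly-A controls and ACTB were also lower with siAkt1-22.

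**Figure D3:**
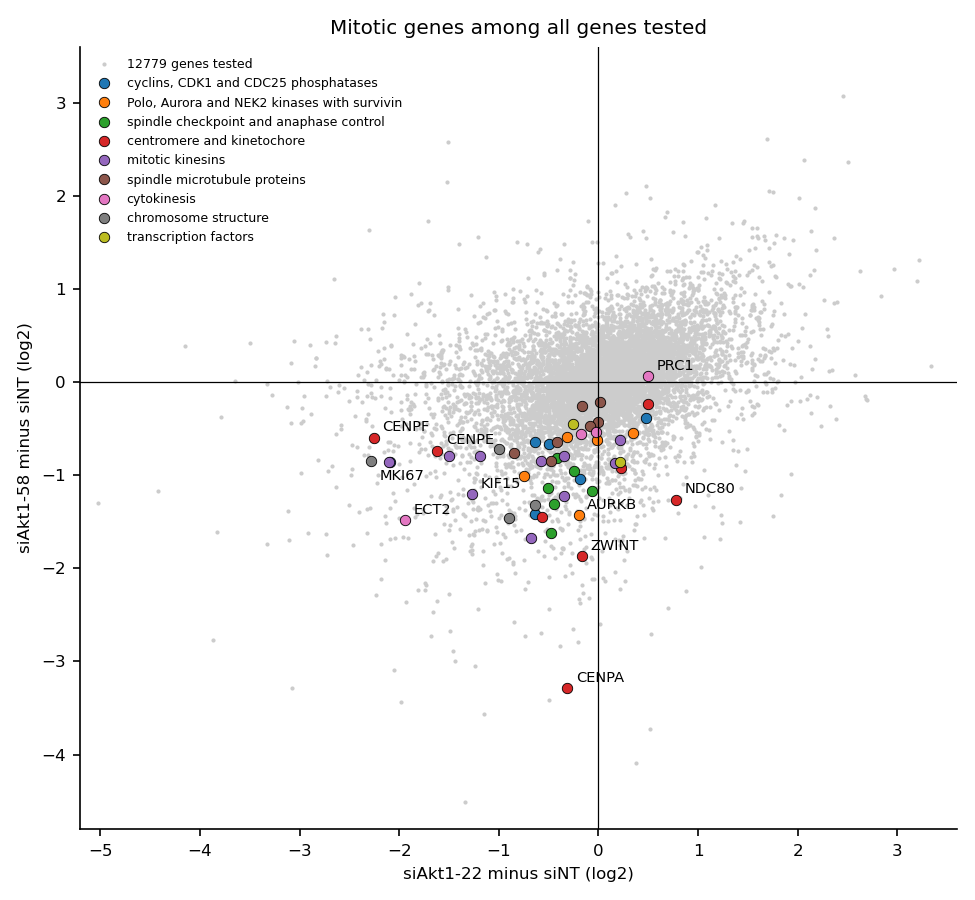
Log2 difference from siNT with siAkt1-22 (x axis) and siAkt1-58 (y axis) for 12779 genes tested (grey) and 52 mitotic genes (coloured by role), 1 library per siRNA and 1 shared siNT library. The mitotic genes lie below the horizontal axis except PRC1, with CENPA lowest and MKI67 and CENPF furthest left.

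Most probe sets of a gene lay on the same side of siNT. The members had 134 probe sets, of which 126 were above the filter level, and 96 of the 126 lay below siNT with both siRNAs. The share over all probe sets above that level was not counted, so the 96 cannot be set against it. Of the 74 probe sets among the 126 that did not stand for their gene, 64 had the same sign as the brightest with siAkt1-22 and 69 with siAkt1-58. All 6 MKI67 probe sets were between -2.65 and -2.18 with siAkt1-22 and at -0.75 or lower with siAkt1-58. The 4 CENPA probe sets ran from -0.48 to -0.14 with siAkt1-22 and from -3.78 to -2.66 with siAkt1-58. For NEK2, 6 probe sets lay between 0.21 and 0.61 with siAkt1-22 and between -0.66 and -0.46 with siAkt1-58. These genes kept their order of the siRNAs in every probe set above the filter level. Other genes varied more. CDC25B ran from -2.09 to -0.69 with siAkt1-22 over 5 probe sets, and NUSAP1 from -1.43 to -0.15 over 3. BIRC5 ran from -0.85 to 0.20 with siAkt1-22 over 10 probe sets. PRC1 lay between 0.44 and 0.51 with siAkt1-22 over 3 probe sets, and between -0.17 and 0.06 with siAkt1-58, so its side of siNT with siAkt1-58 depended on the probe set. TOP2A, at -0.99 with siAkt1-22 in its brightest probe set, reached -1.27 in another. NCAPH and PLK1 each had a dimmer probe set that read the same in all libraries. Probe sets of a gene measure the same RNA and are not replicates of a condition.

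**Figure D4:**
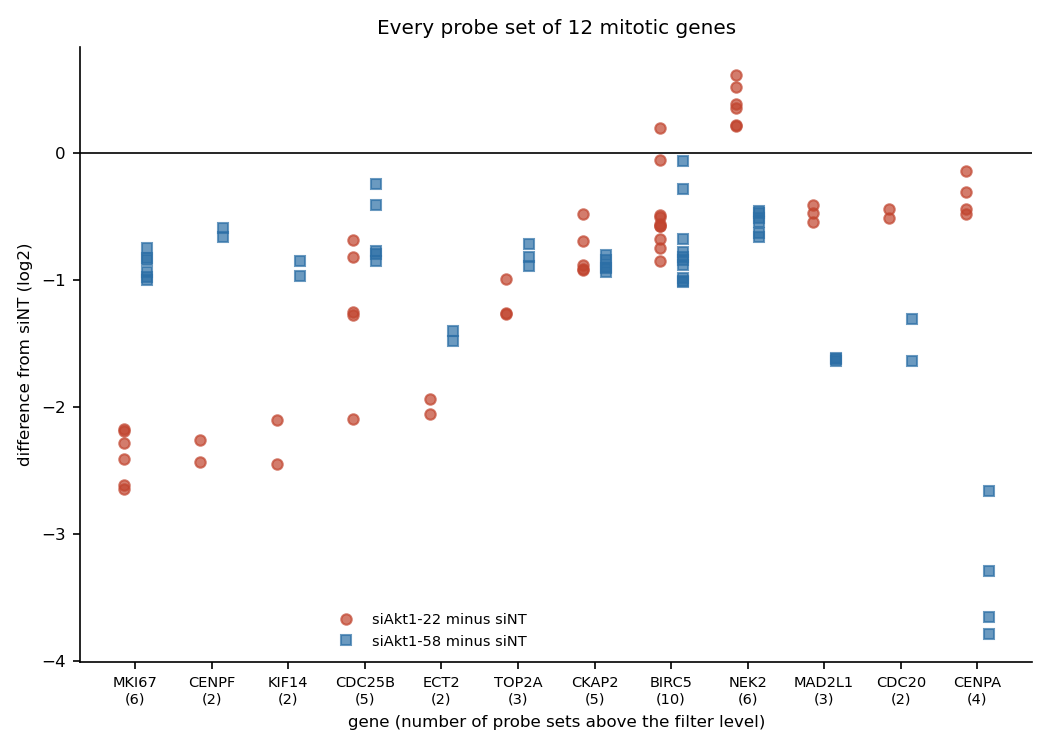
Log2 difference from siNT (y axis) of every probe set above the filter level for 12 mitotic genes (x axis, number of probe sets in brackets), with siAkt1-22 (circles) and siAkt1-58 (squares), 1 library each. Within MKI67, CENPF and KIF14 all circles lie below all squares, and within CENPA, MAD2L1, CDC20 and NEK2 all squares lie below all circles.

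Genes of the same machinery outside the list were counted in the same way, and 21.4% of all genes tested lay below siNT with both siRNAs. Of 29 other kinetochore and checkpoint genes, 21 lay below siNT with both siRNAs, with medians of -0.28 with siAkt1-22 and -0.83 with siAkt1-58. CENPU, an inner kinetochore protein, was -2.09 with siAkt1-22 and -1.69 with siAkt1-58, and MAD1L1, the kinetochore receptor of MAD2, 1.06 with siAkt1-22 and 0.52 with siAkt1-58. Of 20 cohesin and other condensin genes, 14 lay below siNT with both, against the same 21.4%. SMC2, the condensin ATPase, was -1.82 with siAkt1-22 and -1.41 with siAkt1-58, and MAU2, a cohesin loader, 1.22 with siAkt1-22 and 0.86 with siAkt1-58. Of 22 centrosome, augmin and gamma-tubulin genes, 15 lay below with both (21.4% of genes tested), among them PLK4, the kinase of centriole duplication (-2.33 with siAkt1-22 and -1.62 with siAkt1-58), while the gamma-tubulin partner TUBGCP3 was 0.62 with siAkt1-22 and 0.80 with siAkt1-58.

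Counts for the APC/C genes were near those over all genes tested. Of 16 genes, 4 lay below siNT with both siRNAs, where 21.4% of genes tested did, and 5 above, where 30.9% did, with medians of 0.04 with siAkt1-22 and -0.07 with siAkt1-58. The lowest was its inhibitor FBXO5 (-1.05 with siAkt1-22 and -1.74 with siAkt1-58), and the highest was the subunit ANAPC13 (0.76 with siAkt1-22 and 0.45 with siAkt1-58). Mitotic entry regulators were below siNT with both in 8 of 10 genes, against 21.4% of genes tested. The phosphatase CDC25A was -0.97 with siAkt1-22 and -1.84 with siAkt1-58, and ENSA, which inhibits the phosphatase opposing CDK1, 0.19 with siAkt1-22 and 0.20 with siAkt1-58. Of 12 MuvB, DREAM and NF-Y genes, 8 lay below with both, again beside 21.4%. TFDP1, the DNA-binding partner of E2F factors, was -1.98 with siAkt1-22 and -0.22 with siAkt1-58, and the NF-Y subunit NFYC 0.62 with siAkt1-22 and 0.24 with siAkt1-58. Of 19 measured genes among 20 others with a G2/M peak, 13 lay below with both, where 21.4% of genes tested did. Lamin B1, LMNB1, was -1.15 with siAkt1-22 and -3.57 with siAkt1-58, and PSRC1, a microtubule-binding protein, 0.60 with siAkt1-22 and -0.60 with siAkt1-58.

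DNA replication genes, which peak earlier in the cycle, were set beside the mitotic genes. Of 31, 24 lay below siNT with both siRNAs, against 21.4% of genes tested. Their medians were -0.50 with siAkt1-22 and -1.47 with siAkt1-58, beside -0.38 with siAkt1-22 and -0.84 with siAkt1-58 for the mitotic genes. With siAkt1-58, 24 of 31 were at least 2-fold below siNT, beside 18 of 52 mitotic genes and 3.58% of genes tested. With siAkt1-22 it was 4 of 31, beside 9 of 52 mitotic genes and 5.97% of genes tested. The replicative helicase subunit MCM6 was -2.18 with siAkt1-22 and -1.74 with siAkt1-58, and its fellow subunit MCM2 0.47 with siAkt1-22 and -0.15 with siAkt1-58. The difference between the lists was not tested.

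**Figure D5:**
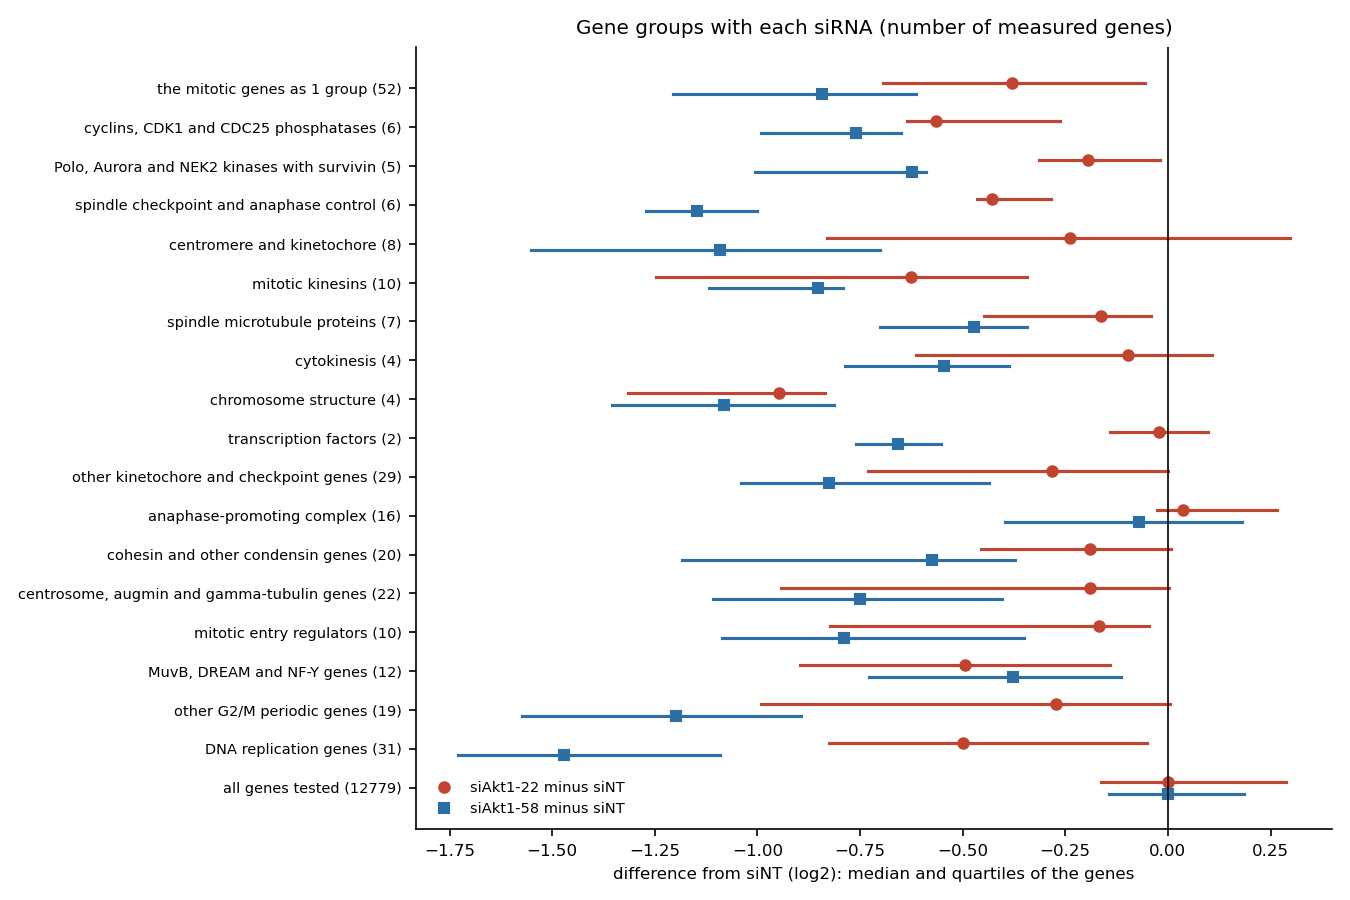
Median log2 difference from siNT (points, x axis) and quartiles (bars) with siAkt1-22 (circles) and siAkt1-58 (squares) for the mitotic genes, their 9 role groups, 8 lists of other genes and all genes tested (y axis, measured genes in brackets). The squares lie left of the circles in all gene groups except the MuvB, DREAM and NF-Y genes and all genes tested. Both APC/C medians lie within 0.07 of 0.

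The members were also described by the motifs in their promoter windows, with no test between the groups. The 24 members with a CHR core had medians of -0.33 with siAkt1-22 and -0.82 with siAkt1-58. The 21 measured members whose windows held none had medians of -0.47 with siAkt1-22 and -0.85 with siAkt1-58. With a CCAAT match the medians over 35 measured members were -0.42 with siAkt1-22 and -0.85 with siAkt1-58, and without one, over 10 members, -0.37 with siAkt1-22 and -0.79 with siAkt1-58. The 20 members with both motifs had medians of -0.31 with siAkt1-22 and -0.79 with siAkt1-58.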

How the data were processed

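The authors deposited 1 log2 value per probe set and array. The submitters' processing notes name RMA with no version or settings. The log2 scale was inferred from the range of the deposited values, 2.20 to 13.4. Of 49386 probe sets, 20.7% were equal in all 3 libraries, within a tolerance of 1e-09 on the log2 scale. The number of arrays limits the precision.

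Probe sets with 1 gene in the platform annotation (45253) gave 18239 genes, each by its brightest probe set over the libraries, with symbols updated through Entrez identifiers. Probe sets with several genes (1327), none listed (2713) or controls (93) were left out. Genes whose mean fell under the 30th percentile were not tested, which left 12779. The siAkt1 libraries formed 1 group against siNT in limma 3.58.1 under R 4.3.3 (lmFit and eBayes), with two-sided p-values adjusted by the Benjamini-Hochberg method across those 12779 genes. The limma fit and the 2-fold rule were run on simulated data with planted differences. The only check was that the median fitted difference lay near the planted one. The other steps were not simulated.

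The members, lists and tests were chosen with earlier results of these data known. Any member could be named. Library values were due for members at least 2-fold from siNT with both siRNAs, the 8 lowest and 5 highest by mean difference, 5 at each end of the difference between siRNAs, and 13 genes fixed by role. From each other list the lowest and highest gene is named. The alternatives changed the probe set summary, the array scaling, the filter, the size limit and the eBayes settings, or left out a library. Averaging the probe sets above the filter level, and the comparison with genes in the members' range of levels, were added after seeing the data.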

Additional observations from a re-analysis of the deposited data

Results flagged for a closer look

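In 4 mitotic genes the siAkt1-22 library lay above siNT and the siAkt1-58 library below it, with at least 2-fold between them. NDC80, the microtubule-binding kinetochore subunit, was 2.04 higher on the log2 scale with siAkt1-22 than with siAkt1-58. SPC25, of the same complex, was 1.15 higher. FOXM1, the transcription factor, was 1.08 higher, and KIF20A, the midzone kinesin, 1.03 higher. With 1 library of each siRNA these differences were not tested. The share of all genes tested that met the same rule was not counted. In all, 9 of 52 members lay above siNT with siAkt1-22 and below it with siAkt1-58, against 13.5% of genes tested.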

How the results depend on the processing

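When probe sets were averaged (all, or those above the filter level, the second chosen after seeing the data), arrays were median-centred or quantile-normalized, or the filter was dropped or raised, the members' median stayed between -0.40 and -0.33 with siAkt1-22 and between -0.84 and -0.77 with siAkt1-58. The number below siNT with both siRNAs ranged from 41 to 43, and the number at least 2-fold below with both from 1 to 3. The value of 1 came from the filter at the 50th percentile, where KIF15 was not among the genes kept. A limit of 1.5-fold gave 17 members lower with both, 17 with siAkt1-22, 41 with siAkt1-58 and 1 higher with siAkt1-22. At that limit 23 members were higher with siAkt1-22 than with siAkt1-58. The shares of all genes tested at 1.5-fold were not counted, so these counts cannot be set against them. Leaving out 1 siAkt1 library gave between 9 members (without siAkt1-58) and 18 members (without siAkt1-22) at least 2-fold below siNT, and between 42 and 51 below it. Those are the counts for each siRNA alone given above, so they are no separate check. Dropping the filter likewise could not change the members' medians or counts, because every measured member lay above it. Limma called 0 members under every setting it was run with, and was not run without a siAkt1 library, which leaves no residual degrees of freedom. For all 28 members named by rule, the mean difference moved by less than the SD between the siRNAs under averaging, median centring and quantile normalization. No paired analysis was possible, because a single siNT library stood against both siAkt1 libraries. The labels also carry no replicate numbers. The single siNT library enters every difference from siNT, and its own spread was not measured.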

Other observations

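PTTG1 (securin) was read by a bright probe set shared with PTTG3P, which gave 11.03 with siAkt1-22 and 10.30 with siAkt1-58, against 10.54 with siNT. Its other probe set, shared also with PTTG2, was dim, at 3.80 with siAkt1-22 and 3.64 with siAkt1-58, against 3.76 with siNT. The genes read by these probe sets cannot be told apart.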
